A study of Mus musculus with 4 samples.

Results

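The Rab GTPases of vesicle traffic were taken as every gene on the array whose printed name is Rab followed by a number and at most 1 letter and 1 further digit. This gave 59 of the 24841 named genes, read by 114 of 56605 probes. RAW264 cells, a mouse macrophage line of the BALB/c strain, were measured in 4 groups of 1 array each. The groups were cells given siRNA to Tfe3/Tfeb and iron, cells given the same siRNA without iron, cells given siRNA to GFP and iron, and cells given siRNA to GFP alone. GFP siRNA served as the control, so every group had been transfected. Iron was given as 500 µM ferric chloride, from 48 hours after transfection, and left on for 24 hours. With 1 array per group no difference between groups has a replicate check, no test was possible, and all differences compare these 4 arrays.

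Rab proteins are small GTPases that sit on the cytosolic face of membranes and, when bound to GTP, recruit the effectors that move, tether and fuse vesicles. Exchange factors load them with GTP, GTPase-activating proteins switch them off, and GDP dissociation inhibitors carry them between membranes. In macrophages they direct phagosome maturation, endosome to lysosome traffic and the return of the transferrin receptor, which brings iron into the cell, to the surface. Tfe3 and Tfeb are transcription factors of lysosome and autophagy genes that bind E-box motifs.

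The probe and promoter of Rab15 are shown first because it differed most in all 4 comparisons. Rab15 is an endosomal Rab that takes part in transferrin receptor recycling. The probe lies at chr12:77898991-77899050 (mm9, minus strand) by the array's own annotation. The promoter window, from RefSeq, is the first of 4 listed for the gene, at chr12:76822475-76822774 (GRCm38.p6, minus strand), and runs from 250 bases before to 50 bases after a transcript start. It has no capitals because it holds neither of the E-box motifs given further on.
Rab15 probe: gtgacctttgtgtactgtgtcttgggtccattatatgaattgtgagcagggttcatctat
Rab15 promoter: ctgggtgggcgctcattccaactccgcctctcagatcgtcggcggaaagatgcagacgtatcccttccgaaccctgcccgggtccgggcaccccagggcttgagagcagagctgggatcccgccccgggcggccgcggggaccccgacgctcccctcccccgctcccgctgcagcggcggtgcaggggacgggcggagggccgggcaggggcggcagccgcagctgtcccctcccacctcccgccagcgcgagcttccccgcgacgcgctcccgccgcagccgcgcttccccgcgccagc

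Of the 59 Rab genes, 45 gave a signal well above background on all 4 arrays, 1 (Rab3b) on 1 array, and 13 on none. The 13 were Rab3c, Rab6b, Rab9b, Rab17, Rab25, Rab26, Rab27b, Rab30, Rab36, Rab38, Rab39b, Rab40b and Rab44, and they have no value below. Among them, Rab17 and Rab25 are known from epithelial cells, and Rab3c and Rab26 from regulated secretion. Across the arrays, 14337 to 14904 genes were well above background. Of the macrophage markers 8 of 9 were above background on all 4 arrays, against 0 of 4 epithelial, 1 of 5 fibroblast, 1 of 4 endothelial and 1 of 4 lymphocyte markers. The brightest Tfe3 probe stood at 68.4% of the siGFP level with iron and at 60.6% without, and the brightest Tfeb probe at 112% with iron and 91.0% without, so the Tfeb signal was not lower in the siTfe3/Tfeb array with iron.

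Values are log2 signals of a gene's brightest probe relative to the 75th percentile of its array. Such a level is comparable between arrays for 1 probe, but not between genes. The only error available is that of probes printed in several spots of an array. Over 300 such probes, the SD of a log2 difference was 0.58 for signals below -4 (76 probe and array combinations), 0.27 between -4 and -2 (36) and 0.063 above 2 (1074). It was 0.11 between -2 and 0 and 0.10 between 0 and 2, but these rest on only 6 and 8 combinations and are poorly known. It covers spot error within an array and leaves out variation between cultures.

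**Figure D1:**
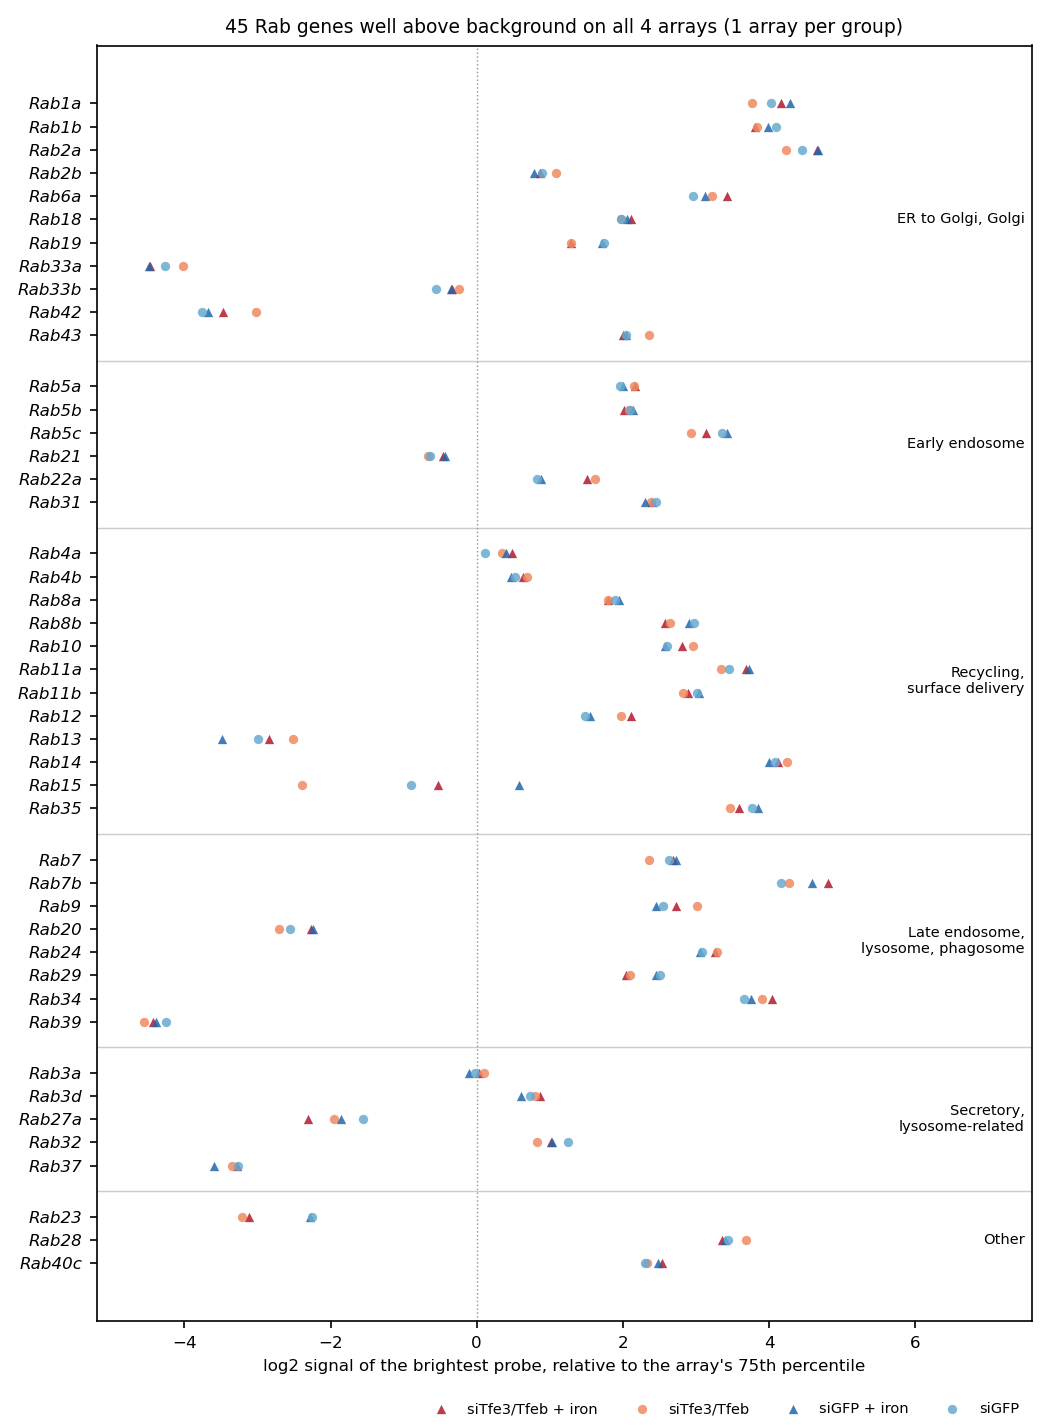
Level of each of the 45 Rab genes (rows, by role) as log2 signal of the brightest probe relative to the array's 75th percentile (x axis). Each point is 1 array, with iron as triangles and without as circles, siTfe3/Tfeb in red and orange and siGFP in blue. For most genes the 4 points lie close together, and those of Rab15 span the widest range, -2.39 to 0.58.

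Rab15 had levels of -0.53 in siTfe3/Tfeb cells with iron, -2.39 in siTfe3/Tfeb cells, 0.58 in siGFP cells with iron and -0.90 in siGFP cells. Its level was therefore higher with iron under both siRNAs and lower with siTfe3/Tfeb whether or not iron was given. With iron it was 3.63-fold higher in siTfe3/Tfeb cells (log2 difference 1.86) and 2.79-fold higher in siGFP cells (1.48). With siTfe3/Tfeb it was 2.16-fold lower with iron (-1.11) and 2.81-fold lower without (-1.49). The repeated-spot SD is 0.27 at the level of -2.39, which enters the differences of 1.86 and -1.49, and 0.10 to 0.11 at its other levels. The iron difference was 0.38 larger in siTfe3/Tfeb cells than in siGFP cells. With normexp background correction that gap was 0.075, from iron differences of 1.38 in siTfe3/Tfeb cells and 1.31 in siGFP cells. These values rest on 1 probe, since the gene's other probe was not well above background on any array.

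In siGFP cells, iron left Rab15 as the 1 member of 45 at least 1.5-fold higher, beside 4.2% of all genes measured, and 0 members at least 1.5-fold lower, beside 1.86%. Past 2-fold either way stood Rab15 alone, beside 1.67% of genes. In siTfe3/Tfeb cells, Rab15 was again the only member at least 1.5-fold higher with iron, beside 4.58% of genes, and 0 were at least 1.5-fold lower, beside 3.38%. Rab15 alone passed 2-fold there, beside 2.07%. The median difference of the 45 members with iron was 0.015 in siTfe3/Tfeb cells and 0.031 in siGFP cells, and the medians over all genes were -0.0065 in siTfe3/Tfeb cells and -0.020 in siGFP cells. In each, 24 of the 45 members were above 0, beside 49.1% of all genes in siTfe3/Tfeb cells and 46.0% in siGFP cells.

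With siTfe3/Tfeb and no iron, Rab22a and Rab42 were at least 1.5-fold higher, beside 6.25% of genes, and Rab15 and Rab23 at least 1.5-fold lower, beside 7.58%. Rab15 alone passed 2-fold, beside 3.23%. With siTfe3/Tfeb in the presence of iron, Rab13 and Rab22a were at least 1.5-fold higher, beside 3.97%, Rab15 and Rab23 at least 1.5-fold lower, beside 5.62%, and Rab15 passed 2-fold, beside 2.2%. The median difference of the members was 0.011 with iron and 0.0093 without, and the medians over all genes were -0.019 with iron and -0.028 without. In each, 23 of 45 members were above 0, beside 47.2% of all genes with iron and 46.5% without. The iron response differed by at least 1.5-fold between the siRNAs in 0 of 45 members, beside 5.12% of genes.

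**Figure D2:**
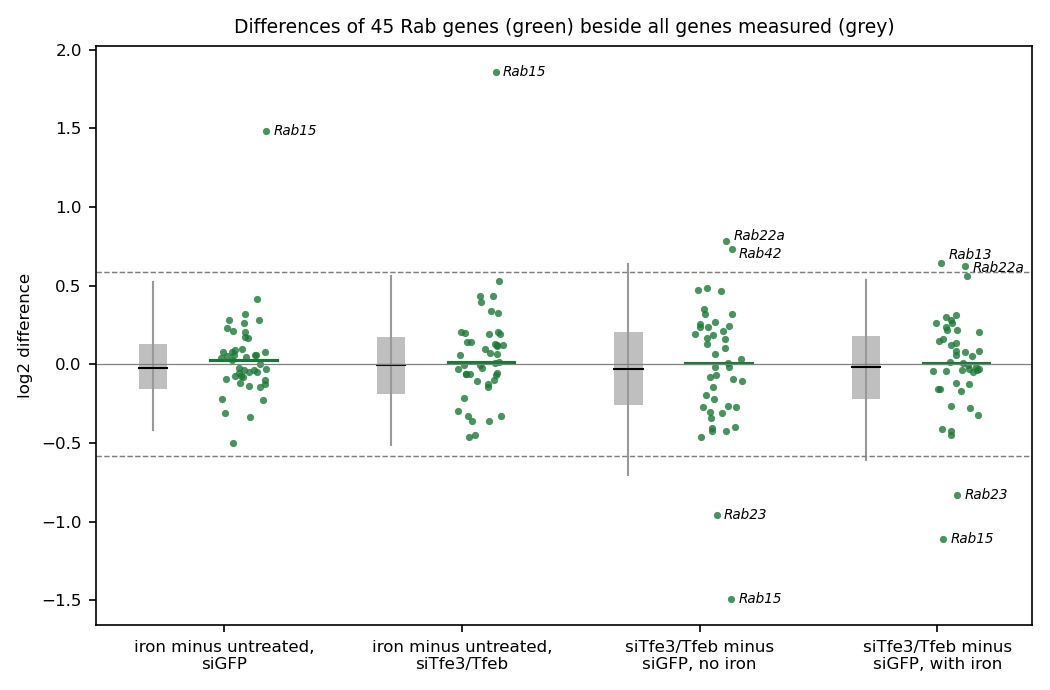
Log2 difference (y axis) of the 45 Rab genes in each of the 4 comparisons (x axis), as green points with a green line at their median, beside all genes measured, as a grey box from the lower to the upper quartile with a black median and a line from percentile 5 to percentile 95. Dashed lines mark 1.5-fold, and the genes past them are named. Rab15 lies highest with iron (1.86 and 1.48) and lowest with siTfe3/Tfeb (-1.11 and -1.49).

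The iron comparisons in the 2 siRNA backgrounds share no array, and neither do the siTfe3/Tfeb comparisons with and without iron, so each pair can be set side by side. For iron, 33 of 45 members (73.3%) had the same sign in both, beside 72.0% of all genes. Pearson's r over the 45 members was 0.85, and 0.64 without Rab15, beside 0.68 over all genes. For siTfe3/Tfeb, 41 of 45 (91.1%) had the same sign, beside 77.6% of all genes, with r of 0.89, and 0.84 without Rab15, beside 0.78 over all genes. These are descriptions over genes of the same 4 arrays, and the members and all genes were not matched for signal level.

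**Figure D3:**
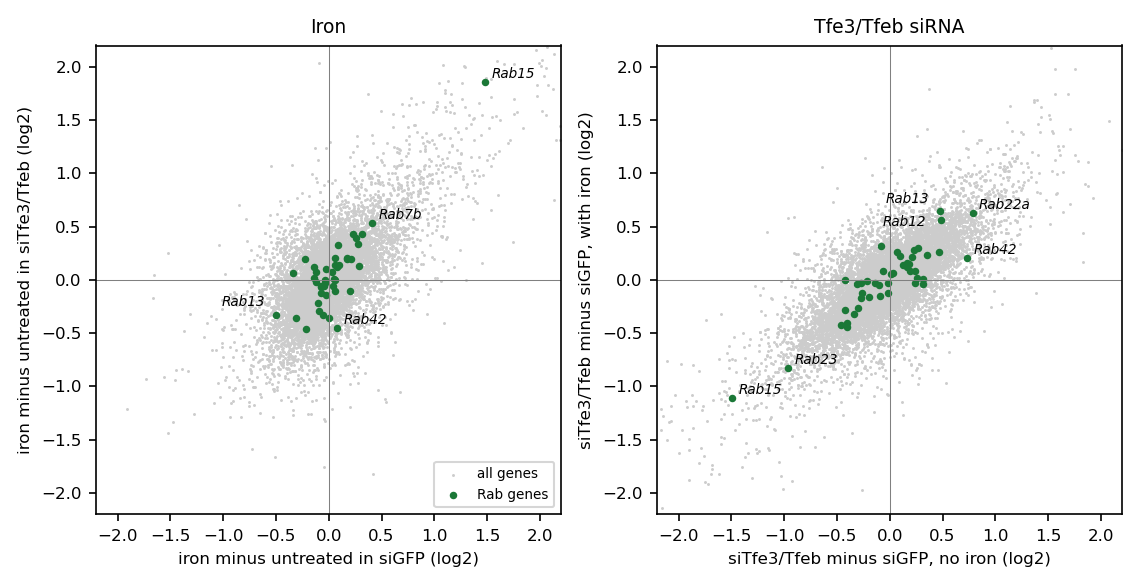
Each point is a gene above background on all 4 arrays, with Rab genes in green and all genes in grey. On the left, the log2 iron difference in siTfe3/Tfeb cells (y axis) is set against that in siGFP cells (x axis), and on the right the siTfe3/Tfeb difference with iron (y axis) against that without (x axis). The axes stop at 2.2, which leaves 25 of 13859 genes outside on the left and 36 on the right, and Rab15 lies at the end of the Rab genes in both.

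A lower threshold of 1.25-fold in both comparisons of a pair was chosen after the values were seen. Rab15 and Rab7b were higher with iron by it under both siRNAs, beside 5.95% of genes. By its brightest probe only, Rab13 was lower with iron under both, beside 4.19%. With siTfe3/Tfeb, Rab12, Rab13 and, by its brightest probe only, Rab22a were higher in both, beside 8.73%, and Rab15, Rab19, Rab23, Rab27a and Rab29 were lower in both, beside 11.7%.

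Among the 11 measured Rabs of the ER to Golgi route and the Golgi, the median iron difference was -0.021 in siTfe3/Tfeb cells and 0.078 in siGFP cells. Rab1a, which drives ER to Golgi transport, was 0.39 higher with iron in siTfe3/Tfeb cells and 0.26 higher in siGFP cells, while its close relative Rab1b stood at -0.02 in siTfe3/Tfeb cells and -0.12 in siGFP cells. Rab2a, a Golgi Rab, was likewise higher with iron, by 0.43 in siTfe3/Tfeb cells and 0.23 in siGFP cells. Rab2b stood at -0.21 in siTfe3/Tfeb cells and -0.10 in siGFP cells. The same comparison for Rab6a, which serves retrograde Golgi traffic, gave 0.20 in siTfe3/Tfeb cells and 0.17 in siGFP cells. Rab1a, Rab1b, Rab2a, Rab7b and Rab14 had the brightest probes of the family, with levels of at least 3.77 on each array, and their spot SD is 0.063.

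Rab1a had levels of 4.16 in siTfe3/Tfeb cells with iron, 3.77 in siTfe3/Tfeb cells, 4.29 in siGFP cells with iron and 4.03 in siGFP cells. With siTfe3/Tfeb it stood at -0.13 with iron and -0.26 without. Rab1b had levels of 3.81 in siTfe3/Tfeb cells with iron, 3.83 in siTfe3/Tfeb cells, 3.98 in siGFP cells with iron and 4.10 in siGFP cells, so both siTfe3/Tfeb arrays lay below both siGFP arrays, with differences of -0.17 with iron and -0.27 without. Rab2a had levels of 4.66 in siTfe3/Tfeb cells with iron, 4.23 in siTfe3/Tfeb cells, 4.68 in siGFP cells with iron and 4.45 in siGFP cells, and both arrays with iron lay above both without. Its siTfe3/Tfeb difference was -0.01 with iron and -0.22 without.

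Rab42 had levels of -3.47 in siTfe3/Tfeb cells with iron, -3.02 in siTfe3/Tfeb cells, -3.68 in siGFP cells with iron and -3.76 in siGFP cells. The array with siTfe3/Tfeb and no iron was thus the high one. Its siTfe3/Tfeb difference was 0.20 with iron and 0.73 without, where the spot SD is 0.27. Rab19 was 0.43 lower with siTfe3/Tfeb in the presence of iron and 0.46 lower without. Rab43, a Golgi Rab, stood at -0.04 with iron and 0.32 without. Rab33b, which binds the autophagy protein Atg16l1, stood at 0.01 with iron and 0.32 without. Rab33a, at 0.01 with iron and 0.25 without, lies in the range where the spot SD is 0.58. Rab18, found on the ER and lipid droplets, stood at 0.05 with iron and 0.01 without.

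Of the 6 measured early endosome Rabs, Rab22a, which acts in endosomal sorting and recycling, was the one past 1.5-fold. It had levels of 1.51 in siTfe3/Tfeb cells with iron, 1.62 in siTfe3/Tfeb cells, 0.89 in siGFP cells with iron and 0.83 in siGFP cells. Both siTfe3/Tfeb arrays of this probe thus lay above both siGFP arrays, by 0.62 with iron and 0.79 without. The probe ranks as the brightest through the siTfe3/Tfeb arrays, however, and its 3 probes did not give the same picture. The most 5′ of the 3, at chr2:173527475-173527534 (mm9, plus strand), is the one annotated to the RefSeq transcript NM_024436, and it had levels of 1.03 in siTfe3/Tfeb cells with iron, 0.68 in siTfe3/Tfeb cells, 1.16 in siGFP cells with iron and 0.82 in siGFP cells. In siGFP cells it was thus about as bright as the chosen probe or brighter, and its siTfe3/Tfeb difference was -0.13 with iron and -0.14 without. The brightest probe, at chr2:173530063-173530122, and the probe at chr2:173528377-173528436 are annotated to an Ensembl transcript. The dimmer of these Ensembl probes gave 0.28 with iron and 0.77 without. The 3 probes are shown because the siTfe3/Tfeb difference of the gene depends on which is read.
Rab22a probe, RefSeq transcript: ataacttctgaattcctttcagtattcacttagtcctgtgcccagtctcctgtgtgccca
Rab22a brightest probe: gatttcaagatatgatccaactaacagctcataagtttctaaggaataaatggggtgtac
Rab22a other Ensembl probe: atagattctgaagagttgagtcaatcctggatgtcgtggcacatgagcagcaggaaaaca

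Rab5 proteins drive early endosome fusion. With iron, Rab5a stood at 0.01 in siTfe3/Tfeb cells and 0.05 in siGFP cells, and Rab5c at 0.21 in siTfe3/Tfeb cells and 0.06 in siGFP cells. With siTfe3/Tfeb, Rab5c was 0.28 lower with iron and 0.42 lower without, while Rab5a stood at 0.15 with iron and 0.19 without. Rab21, which takes part in integrin traffic, was 0.19 higher with iron in siTfe3/Tfeb cells and 0.21 higher in siGFP cells. The brightest probe of Rab31, which serves transport between the Golgi and endosomes, gave 0.01 in siTfe3/Tfeb cells and -0.14 in siGFP cells. Its other 2 probes were both higher with iron, the RefSeq probe by 0.32 in siTfe3/Tfeb cells and 0.17 in siGFP cells and a dimmer probe by 0.34 in siTfe3/Tfeb cells and 0.76 in siGFP cells. With siTfe3/Tfeb the brightest Rab31 probe stood at 0.09 with iron and -0.07 without, the second RefSeq probe at -0.20 with iron and -0.35 without and the dimmer probe at -0.38 with iron and 0.03 without.

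Rab5b is shown by 2 of its 3 probes because they differ in their iron response. The brightest, at chr10:128114252-128114311 (mm9, minus strand), gave -0.06 with iron in siTfe3/Tfeb cells and 0.04 in siGFP cells. A probe at chr10:128119584-128119643, annotated to the Ensembl transcript ENSMUST00000220593, had levels of -4.60 in siTfe3/Tfeb cells with iron, -3.52 in siTfe3/Tfeb cells, -4.50 in siGFP cells with iron and -3.63 in siGFP cells. Its iron difference was -1.08 in siTfe3/Tfeb cells and -0.87 in siGFP cells, in ranges where the spot SD is 0.27 to 0.58. The remaining probe, annotated to the RefSeq transcript like the brightest, gave 0.17 in siTfe3/Tfeb cells and 0.26 in siGFP cells.
Rab5b brightest probe: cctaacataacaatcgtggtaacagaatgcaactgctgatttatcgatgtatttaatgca
Rab5b probe lower with iron: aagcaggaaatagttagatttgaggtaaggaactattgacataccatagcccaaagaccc

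The recycling and surface delivery group held 12 measured members beside Rab25. Rab12, which directs the transferrin receptor to lysosomes, had levels of 2.11 in siTfe3/Tfeb cells with iron, 1.97 in siTfe3/Tfeb cells, 1.55 in siGFP cells with iron and 1.49 in siGFP cells. Both siTfe3/Tfeb arrays lay above both siGFP arrays. Its 4 probes gave siTfe3/Tfeb differences of 0.38 to 0.56 with iron and 0.45 to 0.60 without, all positive. Rab13, which delivers cargo to the surface and cell junctions, had levels of -2.85 in siTfe3/Tfeb cells with iron, -2.52 in siTfe3/Tfeb cells, -3.49 in siGFP cells with iron and -2.99 in siGFP cells. It was 0.65 higher with siTfe3/Tfeb in the presence of iron and 0.47 higher without, and its second probe gave 0.65 with iron and 0.50 without. With iron the brightest Rab13 probe was 0.33 lower in siTfe3/Tfeb cells and 0.50 lower in siGFP cells, but the second probe was higher, by 0.32 in siTfe3/Tfeb cells and 0.16 in siGFP cells, so the probes disagreed on iron and not on the siRNA.

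Rab11a, which returns the transferrin receptor from the perinuclear recycling compartment, was 0.34 higher with iron in siTfe3/Tfeb cells and 0.28 higher in siGFP cells, and Rab11b stood at 0.07 in siTfe3/Tfeb cells and 0.03 in siGFP cells. Rab4a, of the fast recycling route, stood at 0.13 in siTfe3/Tfeb cells and 0.28 in siGFP cells, and Rab4b at -0.06 in both. A dimmer Rab4a probe gave the reverse order, 0.38 in siTfe3/Tfeb cells and 0.11 in siGFP cells, at levels where the spot SD is 0.27. With siTfe3/Tfeb, Rab10, a Rab of surface delivery, was 0.24 higher with iron and 0.35 higher without. Rab8b, which acts in delivery to the surface, stood at -0.32 with iron and -0.34 without, and Rab8a at -0.15 with iron and -0.10 without. Rab35, of fast recycling, stood at -0.26 with iron and -0.30 without, while Rab14, which links Golgi and endosomes, had levels of 4.13 in siTfe3/Tfeb cells with iron, 4.25 in siTfe3/Tfeb cells, 4.004 in siGFP cells with iron and 4.08 in siGFP cells. Its siTfe3/Tfeb difference was 0.12 with iron and 0.17 without, and both siTfe3/Tfeb arrays lay above both siGFP arrays. Its iron difference was -0.12 in siTfe3/Tfeb cells and -0.08 in siGFP cells. Of its 5 other probes, the 1 that disagreed past 1.5-fold stood at -0.61 with iron and -0.38 without with siTfe3/Tfeb.

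Late endosome, lysosome and phagosome Rabs counted 8 measured members, none past 1.5-fold by the brightest probe. Rab7b, which serves late endosome to Golgi traffic, had levels of 4.81 in siTfe3/Tfeb cells with iron, 4.27 in siTfe3/Tfeb cells, 4.58 in siGFP cells with iron and 4.17 in siGFP cells. Both arrays with iron lay above both without, by 0.53 in siTfe3/Tfeb cells and 0.41 in siGFP cells, with a spot SD of 0.063. Rab7, the main Rab of late endosomes and lysosomes, was 0.33 higher in siTfe3/Tfeb cells and 0.09 higher in siGFP cells. The second Rab7 probe was 0.39 higher in siTfe3/Tfeb cells and 0.32 higher in siGFP cells, so the small difference in siGFP cells belongs to the brightest probe only. Rab20, which acts in phagosome maturation, was higher by 0.43 in siTfe3/Tfeb cells and 0.32 in siGFP cells, where the spot SD is 0.27.

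With siTfe3/Tfeb, Rab9, which returns mannose 6-phosphate receptors from late endosomes to the Golgi, was 0.26 higher with iron and 0.47 higher without. Rab29, which recruits Lrrk2 to membranes, stood at -0.41 with iron and -0.40 without. Rab34, which acts in lysosome positioning, stood at 0.28 with iron and 0.23 without, and Rab24, linked to autophagy, at 0.22 with iron and 0.21 without. Rab39 stood at -0.04 with iron and -0.31 without, within the range where the spot SD is 0.58.

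Of the 5 measured Rabs of secretory granules and lysosome-related organelles, 3 were above 0 with iron in siTfe3/Tfeb cells (median 0.060), beside 49.1% of all genes. In siGFP cells 0 were above 0 (median -0.22), beside 46.0%. Rab27a, which docks secretory lysosomes at the surface, had levels of -2.31 in siTfe3/Tfeb cells with iron, -1.95 in siTfe3/Tfeb cells, -1.86 in siGFP cells with iron and -1.55 in siGFP cells. It was lower with iron (-0.36 in siTfe3/Tfeb cells and -0.31 in siGFP cells) and lower with siTfe3/Tfeb (-0.45 with iron and -0.40 without). The spot SD is 0.27 at the Rab27a level of -2.31, which enters the differences of -0.36 and -0.45, and 0.11 at its other levels. The second Rab27a probe was well above background on only 1 array. Rab32, of lysosome-related organelles, stood at 0.19 with iron in siTfe3/Tfeb cells and -0.22 in siGFP cells, and Rab37, known from mast cell granules, at 0.06 in siTfe3/Tfeb cells and -0.34 in siGFP cells. Rab3d stood at 0.07 in siTfe3/Tfeb cells and -0.12 in siGFP cells, and Rab3a at -0.07 in both. The spot SD is 0.10 for Rab3a and Rab3d and 0.27 for Rab37, so several of these values lie near it. Rab3b was above background only in siTfe3/Tfeb cells without iron, at a level of -4.35. On the other 3 arrays it was not well above background, and at this level the spot SD is 0.58.

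Rab23, a negative regulator of Hedgehog signalling in mice, had levels of -3.11 in siTfe3/Tfeb cells with iron, -3.21 in siTfe3/Tfeb cells, -2.28 in siGFP cells with iron and -2.25 in siGFP cells. Both siTfe3/Tfeb arrays lay below both siGFP arrays, with differences of -0.83 with iron and -0.96 without and a spot SD of 0.27. Its second probe gave -0.76 with iron and -0.81 without. Iron made a difference of 0.10 in siTfe3/Tfeb cells and -0.03 in siGFP cells. Rab28, a ciliary Rab, had an iron difference of -0.33 in siTfe3/Tfeb cells and -0.05 in siGFP cells, and Rab40c, which joins a ubiquitin ligase complex, one of 0.20 in siTfe3/Tfeb cells and 0.17 in siGFP cells.

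**Figure D4:**
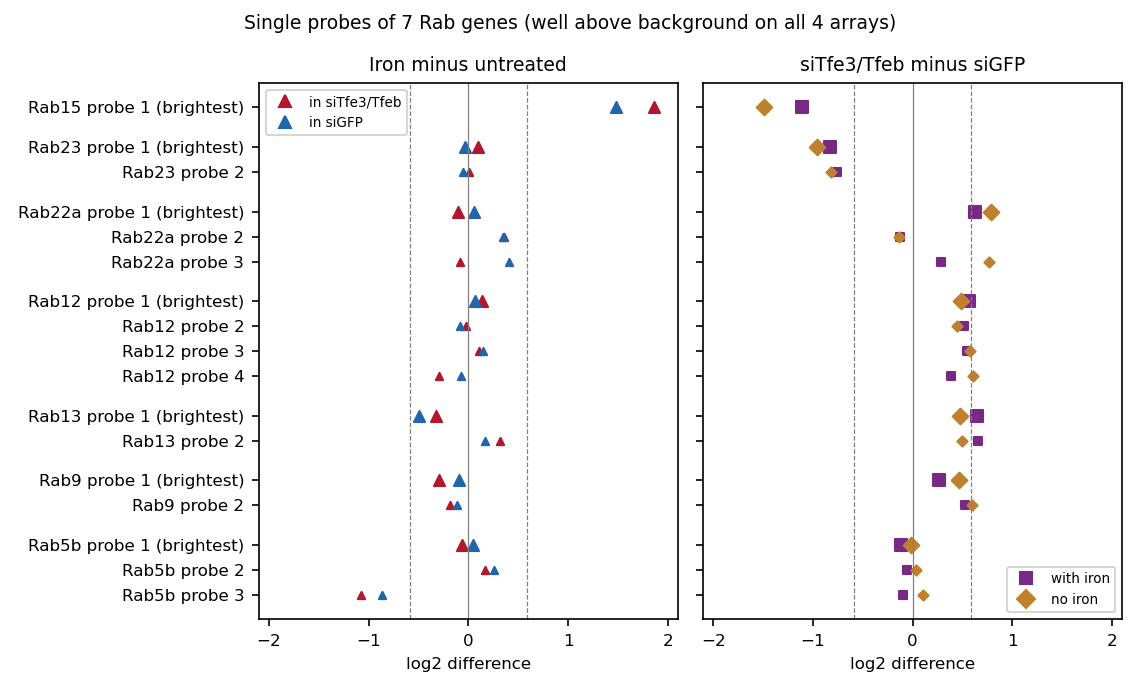
Log2 differences (x axis) of each probe well above background on all 4 arrays for 7 Rab genes (rows). The left side shows iron minus untreated in siTfe3/Tfeb (red) and siGFP (blue), and the right side siTfe3/Tfeb minus siGFP with iron (purple squares) and without (brown diamonds). Larger markers are the brightest probe of a gene, and dashed lines mark 1.5-fold. The 4 Rab12 probes lie together on the right, while 1 Rab5b probe lies apart on the left at -1.08 and -0.87.

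Over 28 genes with a second probe above background, 115 of 162 probe differences had the sign of the brightest probe, and the median gap between them was 0.14. In 7 of the 162 the sign differed by over 1.5-fold, in Rab13, Rab14, Rab22a, Rab31 and Rab5b. Probes of different Rab genes shared at most 14 bases in a row of their 60.

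E-box motifs were searched on both strands in RefSeq promoter windows of 300 bases, which were listed for 48 of the 59 genes in 60 windows. CACGTG was in 6 of the 60 windows (10%), beside 7.15% of 32851 windows of all genes, in Rab20, Rab21, Rab23, Rab24, Rab27a and Rab5a. The longer TCACGTGA, which contains it, was in 3 (5%), beside 0.974%, in Rab21, Rab24 and Rab5a. The core of the antioxidant response element, TGACNNNGC, was in 10 windows (16.7%) of 9 genes, beside 12.4%, and overlaps the E-box in Rab24. The 9 were Rab22a, Rab24, Rab25, Rab3c, Rab43, Rab4b, Rab7, Rab8a and Rab8b. The 4 windows listed for Rab15 held none of the 3 motifs.

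The windows of the 3 genes with the longer E-box are shown because siTfe3/Tfeb targets E-box binding factors. Of the other genes with CACGTG, only Rab23, the lowest of them with siTfe3/Tfeb, is shown, by the window of its 2 that holds the motif. Capitals mark CACGTG or TCACGTGA. The windows shown lie at chr10:115315542-115315841 (minus strand) for Rab21, chr13:55321931-55322230 (minus) for Rab24, chr17:53478984-53479283 (plus) for Rab5a and chr1:33719646-33719945 (plus) for Rab23, all GRCm38.p6. With siTfe3/Tfeb, Rab21 stood at -0.03 with iron and -0.02 without, and Rab24 at 0.22 with iron and 0.21 without. Rab5a stood at 0.15 with iron and 0.19 without, and Rab23 at -0.83 with iron and -0.96 without. Of the CACGTG genes not shown, Rab20 stood at -0.03 with iron and -0.14 without, and Rab27a at -0.45 with iron and -0.40 without.
Rab21 promoter: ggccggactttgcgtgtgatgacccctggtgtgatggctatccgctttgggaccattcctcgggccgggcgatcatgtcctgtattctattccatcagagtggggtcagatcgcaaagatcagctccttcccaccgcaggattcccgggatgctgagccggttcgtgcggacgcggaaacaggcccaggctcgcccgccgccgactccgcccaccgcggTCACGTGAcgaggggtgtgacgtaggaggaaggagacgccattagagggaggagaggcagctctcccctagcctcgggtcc
Rab24 promoter: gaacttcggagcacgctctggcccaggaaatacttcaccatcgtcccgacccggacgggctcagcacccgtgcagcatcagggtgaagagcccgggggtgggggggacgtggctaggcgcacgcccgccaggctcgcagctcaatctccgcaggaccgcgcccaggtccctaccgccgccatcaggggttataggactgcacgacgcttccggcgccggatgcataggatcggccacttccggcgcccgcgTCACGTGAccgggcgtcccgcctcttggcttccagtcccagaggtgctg
Rab5a promoter: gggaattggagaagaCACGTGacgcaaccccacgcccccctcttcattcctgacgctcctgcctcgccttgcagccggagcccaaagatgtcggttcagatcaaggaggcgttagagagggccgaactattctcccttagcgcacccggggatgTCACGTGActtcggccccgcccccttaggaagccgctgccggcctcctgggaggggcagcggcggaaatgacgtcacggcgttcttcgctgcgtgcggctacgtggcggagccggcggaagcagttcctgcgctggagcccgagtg
Rab23 promoter: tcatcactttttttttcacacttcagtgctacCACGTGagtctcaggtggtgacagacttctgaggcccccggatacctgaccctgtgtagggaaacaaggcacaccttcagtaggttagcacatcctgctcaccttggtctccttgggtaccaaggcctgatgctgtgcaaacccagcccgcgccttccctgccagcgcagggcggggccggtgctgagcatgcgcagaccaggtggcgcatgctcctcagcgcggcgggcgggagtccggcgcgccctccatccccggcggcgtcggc

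Over the 6 genes with CACGTG, the median siTfe3/Tfeb difference was -0.030 with iron and -0.079 without. Their values ran from -0.83 to 0.22 with iron and from -0.96 to 0.21 without. The 34 measured genes with a listed window and no match had medians of 0.0035 with iron and 0.050 without. Over the 3 genes with TCACGTGA the medians were 0.15 with iron and 0.19 without. The 37 without it had -0.026 with iron and -0.014 without. For TGACNNNGC, the 7 measured genes had medians of -0.032 with iron and 0.16 without. The 33 without it had -0.0043 with iron and -0.014 without.

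Genes that act on Rabs were read by their brightest probe alone, and their other probes were not compared. Among these genes, all 8 of prenylation and extraction were measured. With siTfe3/Tfeb, 7 of the 8 were above 0 both with and without iron, with a median of 0.23 in each, beside 47.2% of all genes above 0 with iron and 46.5% without. Chml, a Rab escort protein, stood at 0.29 with iron and 0.79 without, and Rabif at -0.16 with iron and -0.48 without. Of 33 measured exchange factors, 1 was at least 1.5-fold higher with siTfe3/Tfeb both with and without iron, beside 3.97% of all genes with iron and 6.25% without. It was Ric1, the exchange factor of Rab6, 0.59 higher with iron and 0.68 higher without. At least 1.5-fold lower were 0 in either, beside 5.62% of all genes with iron and 7.58% without. In the iron comparisons, the only exchange factor past 1.5-fold was Dennd6b, at -0.63 in siTfe3/Tfeb cells and -0.04 in siGFP cells. All genes at least 1.5-fold lower with iron were 3.38% in siTfe3/Tfeb cells and 1.86% in siGFP cells.

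GTPase-activating proteins counted 36 measured genes. With iron, 3 of the 36 were at least 1.5-fold higher in each siRNA background, beside 4.58% of all genes in siTfe3/Tfeb cells and 4.2% in siGFP cells. They were Tbc1d9 (0.99 in siTfe3/Tfeb cells and 1.38 in siGFP cells), Tbc1d2, which acts on Rab7 (0.83 in siTfe3/Tfeb cells and 0.87 in siGFP cells), and Sgsm1 (0.61 in siTfe3/Tfeb cells and 0.75 in siGFP cells). With iron 2 were at least 1.5-fold lower in siTfe3/Tfeb cells, beside 3.38% of all genes, and 0 in siGFP cells, beside 1.86%. With siTfe3/Tfeb, 2 of 36 were at least 1.5-fold higher with iron, beside 3.97% of all genes, and 7 of 36 without, beside 6.25%. At least 1.5-fold lower were 1 with iron, Sgsm1 at -0.62, beside 5.62% of all genes, and 0 without, beside 7.58%. Tbc1d30 was higher by 1.17 with iron and 1.61 without. Its siGFP levels, -2.52 with iron and -2.27 without, lie where the spot SD is 0.27. So do the levels of Tbc1d9 without iron, -2.44 in siTfe3/Tfeb cells and -2.35 in siGFP cells.

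Of 35 measured effectors, 2 were at least 1.5-fold higher with iron in each siRNA background. All genes gave 4.58% in siTfe3/Tfeb cells and 4.2% in siGFP cells. Eea1, the tether of early endosomes that binds Rab5, was 0.62 higher in siTfe3/Tfeb cells and 0.69 higher in siGFP cells. Micall2 stood at 0.95 in siTfe3/Tfeb cells and 0.39 in siGFP cells, and Plekhm1 at 0.58 and 0.65. At least 1.5-fold lower with iron were 0 in each, beside 3.38% in siTfe3/Tfeb cells and 1.86% in siGFP cells. With siTfe3/Tfeb, 3 of the 35 were at least 1.5-fold higher with iron, beside 3.97% of all genes, and 4 without, beside 6.25%. Among them, Rab11fip5, a Rab11 effector, was 0.88 higher with iron and 1.16 higher without. At least 1.5-fold lower was 1 in each, beside 5.62% with iron and 7.58% without. It was Rab11fip4, another Rab11 effector, at -0.94 with iron and -0.93 without. The levels of Rab11fip4, from -3.35 to -2.16, lie where the spot SD is 0.27.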

How the data were processed

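Total RNA of each group was labelled with Cy3 and read on an Agilent SurePrint G3 mouse array, per the labels. The deposited scanner files, read with Agilent Feature Extraction 12.0.3.1 per the submitters' processing notes, give a processed intensity for each spot, background-subtracted per the file headers. In the series matrix that the authors deposited, values are log2 and match the scanner differences with a slope of 1.0. They are centred per probe.

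Here log2 intensity minus the array's 75th percentile was used, with no saturated spot. Outlier-flagged spots were left out (3 probes), spots of 1 probe were averaged, and the brightest probe stood for a gene. Probes were named through RefSeq (GRCm38.p6) by accession for 33767, symbol for 9866 and synonym for 310. A difference needed both arrays well above background. All arrays lay on 1 slide.

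Members, lists, motifs and thresholds were chosen with earlier results of these data known. Described in full were members past 1.5-fold, members whose probes disagree and the brightest 5, with up to 3 examples per list and direction. Rab7b, Rab12, Rab9, Rab11a, Rab7 and Rab27a were added after their values were seen. Alternatives used limma 3.58.1 in R 4.3.3 (normexp with an offset of 50, quantile normalization) and pandas 2.3.3. The 1.5-fold threshold was tried on simulated differences with spot noise. Probe choice, background flags and member counts were not part of that trial.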

Additional observations from a re-analysis of the deposited data

Results flagged for a closer look

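Probes other than a gene's brightest were not used in the comparisons, and 8 of their differences passed 1.5-fold where the brightest did not. With iron in siTfe3/Tfeb cells a Rab5b probe stood at -1.08, and in siGFP cells the same probe stood at -0.87. A Rab31 probe stood at 0.76 with iron in siGFP cells. With siTfe3/Tfeb in the presence of iron, a Rab14 probe stood at -0.61 and a Rab8b probe at -0.67. With siTfe3/Tfeb and no iron, the values were 0.60 for a Rab12 probe, 0.71 for a Rab3a probe and 0.60 for a Rab9 probe. In the same comparisons, the brightest probes of Rab12 (0.48), Rab9 (0.47), Rab3a (0.13) and Rab8b (-0.32) lay on the same side of 0, as did that of Rab5b in siTfe3/Tfeb cells (-0.06). Those of Rab14 (0.12), Rab31 (-0.14) and Rab5b in siGFP cells (0.04) lay on the other side. The cause of the differences between probes was not tested.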

How the results depend on the processing

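Over 8 alternatives, the 52 differences of single members gave 416 values, of which 10 changed sign, in 5 differences no larger than 0.14 (Rab2a, Rab7 and Rab11a with siTfe3/Tfeb and iron, and Rab12 and Rab22a with iron in siTfe3/Tfeb cells). None was past 1.5-fold. Rab15 stayed past 1.5-fold in each, at 1.36 to 1.92 with iron in siTfe3/Tfeb cells, 1.31 to 1.49 with iron in siGFP cells, -1.11 to -0.998 with siTfe3/Tfeb and iron, and -1.51 to -1.05 without. The gap between its iron differences ran from 0.051 (normexp with quantile normalization) to 0.45 (median centring). Rab23 stayed past it in 8 of 8 without iron and 6 of 8 with, Rab22a in 7 and 5, Rab42 in 6 without iron and Rab13 in 6 with iron. The 52 differences do not cover every measured member. Those of Rab5b, Rab14 and Rab31, whose probes disagreed in sign as given above, were not among them.

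Counts of members past 1.5-fold moved as follows, and the other alternatives kept each count. Without the background filter they were 3 with iron in siTfe3/Tfeb cells, 2 in siGFP cells, and 4 with siTfe3/Tfeb both with and without iron, and 2 members were lower with iron under each siRNA and 3 with siTfe3/Tfeb both with and without iron. Median centring gave 2 higher with iron in siTfe3/Tfeb cells, 3 higher with siTfe3/Tfeb and iron, a median siTfe3/Tfeb difference of 0.106 with iron and a median difference of iron responses of 0.101. That setting also moved the median over all genes, by 0.095 for siTfe3/Tfeb with iron. The move was 0.055 for iron in siTfe3/Tfeb cells and -0.015 for iron in siGFP cells. Normexp, with or without quantile normalization, gave 0 higher and 1 lower with siTfe3/Tfeb and iron, and 1 higher without iron. The mean over probes gave 1 higher with siTfe3/Tfeb in each. The cause of these shifts was not tested. No paired analysis was possible because each group holds 1 array. Dim members, below -4, are limited by spot error.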
